A study of Mus musculus with 7 samples.

Results

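The genes described here are 10 direct transcriptional targets of p53 in mouse cells, Cdkn1a, Mdm2, Ccng1, Bbc3, Pmaip1, Trp53inp1, Phlda3, Sesn2, Zmat3 and Eda2r. They were taken by symbol from a table of 24421 gene symbols measured by RNA-seq in LSK cells, and all 10 were present. LSK cells are the lineage-negative, Sca1-positive, Kit-positive fraction of the bone marrow, in which hematopoietic stem cells and multipotent progenitors are found. The question put to these genes was whether loss of a single Ddx41 allele changes the transcript level of p53 targets in this compartment.

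p53, encoded by Trp53, is a transcription factor that is kept low by the ubiquitin ligase Mdm2 and accumulates after DNA damage, oncogene activation or disturbed ribosome assembly. It binds a pair of half-sites in or near its target genes and raises the transcription of genes that stop the cell cycle, start apoptosis, lower oxidative stress or feed back on p53 itself. In blood stem and progenitor cells it is known for limiting self-renewal and for removing cells after irradiation or replication stress.

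Donor marrow carried Rosa-CreERT2, a tamoxifen-activated recombinase expressed broadly, in both groups. It was combined with a floxed Ddx41 allele in the Ddx41+/- group and with wild-type Ddx41 in the Ddx41+/+ group. Lethally irradiated BoyJ mice received the marrow, and recipients of both groups were given tamoxifen at 1 mg in 50 µl of corn oil over 2 rounds of 5 days. LSK cells were sorted 8 weeks after transplantation from 4 Ddx41+/+ recipients (replicates 1 to 4) and 3 Ddx41+/- recipients (replicates 6 to 8). The sorting description names no marker that tells donor from recipient cells, and a Ddx41+/- library numbered 5 was removed before deposit and was not analysed here. The ages of the mice are not given in the sources used here. Both groups had been transplanted and had received tamoxifen, so untreated marrow is not part of the comparison.

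Promoter sequences of 7 of the 10 genes were searched for the p53 response element, a pair of half-sites of 10 bases each. Only directly adjacent half-sites were scored, so pairs with bases between them would be missed. The RefSeq windows (GRCm38.p6) reach from 250 bases before to 50 bases after an annotated transcription start. A match was required to keep the central C and G of each half-site, was scored by its mismatches to the p53 consensus, and is the same element on either strand. The matches in 3 of the genes are shown because they are the letters in these windows that most resemble the p53 element. The capitals mark the 4-base core of each half-site.
Cdkn1a: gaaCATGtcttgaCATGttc
Ccng1: agaCCTGcccgggCAAGcct
Bbc3: ctgCAAGccccgaCTTGtcc
The Cdkn1a match lies at chr17:29090928-29090947 on the plus strand, begins 51 bases before the upstream RefSeq start of the gene and has 1 mismatch. It ends 2822 bases before the second RefSeq start, whose own window holds no match with up to 3 mismatches. The Ccng1 match lies at chr11:40755462-40755481 on the minus strand, begins 195 bases before the start and has 1 mismatch. The Bbc3 match lies at chr7:16309486-16309505 on the plus strand, begins 97 bases before the first of the 3 RefSeq starts of Bbc3 and has 3 mismatches. The windows of the other Bbc3 starts hold no match with up to 3.

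Of 27025 genes with a window, 0.0814% held a match with at most 1 mismatch and 1.63% held one with at most 3. Among the members, 2 of 7 held a match with at most 1 mismatch and 3 of 7 held one with at most 3. The windows of Mdm2, Phlda3, Sesn2 and Eda2r held none. This says only that these letters, as directly adjacent half-sites, are not within 300 bases around the start. No window was used for Trp53inp1, Zmat3 or Pmaip1. A match describes the sequence and was not measured as a bound site.

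Depth ranged from 32234499 to 43751290 counts per sample. Ddx41, a DEAD-box RNA helicase gene and the targeted gene, was measured at 92.8, 98.8, 93.3 and 106.6 CPM (counts scaled to a common library size and corrected for composition) in Ddx41+/+ replicates 1 to 4 and at 68.1, 64.4 and 69.5 CPM in Ddx41+/- replicates 6 to 8. The groups did not overlap, and the log2 fold change was -0.54 (SE 0.071, edgeR quasi-likelihood test with Benjamini-Hochberg adjustment, adjusted p = 0.0052). The gate markers Kit (427 to 505 CPM) and Ly6a, which encodes Sca1 (13.3 to 30.5 CPM), were present in all samples. The cells were not alike in other markers. The summed level of 10 genes of mature neutrophils was 741 to 1255 CPM in Ddx41+/+ and 1335 to 2283 CPM in Ddx41+/- samples. Of the 10, 7 did not overlap between genotypes, beside 10.1% of all genes tested. At an unadjusted p under 0.05 (edgeR), 9 were higher in Ddx41+/- samples, beside 5.7% of all genes tested. Mmp9 passed the adjusted test, beside 0.217% of all genes tested, and 1 of the 10 had a log2 fold change below 0. The summed level of 9 LSK markers was 1673 to 1857 CPM in Ddx41+/+ and 1555 to 1702 CPM in Ddx41+/- samples. Lower values in Ddx41+/- samples at an unadjusted p under 0.05 were found for 6 of them (Cd34, Flt3, Slamf1, Procr, Mecom and Hlf). Of all genes tested, 4.93% were lower at this threshold. None of the 9 passed the adjusted test, the smallest adjusted p being 0.062 (edgeR). Summed macrophage markers were 82.7 to 109.1 CPM against 89.8 to 128.7 CPM, B-lineage markers 42.7 to 63.6 against 57.2 to 78.8 CPM, late erythroid markers 28.1 to 50.9 against 39.9 to 63.7 CPM, and markers of stroma and endothelium 9.78 to 14.1 against 12.7 to 39.1 CPM. The log2 fold change was above 0 for all 7 macrophage and all 8 B-lineage markers, beside 48.8% of all genes tested. At an unadjusted p under 0.05 (edgeR), 0 and 3 of them were higher, beside 5.7% of all genes tested. None of these passed the adjusted test, the smallest adjusted p being 0.524 and 0.365 (edgeR). Of 8 T and NK cell markers 6, the Cd3 genes among them, were under 1 CPM in every sample, and their sum (222.9 to 273.8 against 252.8 to 283.2 CPM) was nearly all Nkg7 (220.7 to 281 CPM). The globin genes Hba-a1, Hba-a2, Hbb-bs and Hbb-bt were listed at 0. The part of these cell type differences in the p53 target values was not tested, and in sorted bulk cells a smaller share of a cell type cannot be told apart from less RNA of a gene per cell.

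None of the 10 p53 target genes changed between genotypes at an adjusted p under 0.05. The smallest adjusted p among them was 0.322 (edgeR), and over all genes tested 29 of 13340 passed, or 0.217%. At an unadjusted p under 0.05, 1 of the 10 was higher in Ddx41+/- samples (Ccng1) and 0 were lower, where 5.7% of all genes tested were higher and 4.93% were lower. The CPM values of the genotypes overlapped for all 10 genes, and 10.1% of all genes tested did not overlap. DESeq2, limma-voom and limma-voom with sample quality weights also called 0 members after adjustment and 1 each at an unadjusted p under 0.05. The point estimates were above 0 for 8 of 10 members, with a median log2 fold change of 0.16, beside 48.8% above 0 and a median of -0.0048 for all genes tested. The count above 0 was 6 of 10 without Ddx41+/- replicate 7, without Ddx41+/+ replicate 1 or 2, with library totals only and with sample quality weights. Leaving out Ddx41+/- replicate 7 lowered the median to 0.015, and leaving out Ddx41+/+ replicate 3 or 4 lowered it to 0.090 or 0.10. The plot of CPM by sample shows all 10 genes.

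**Figure D1:**
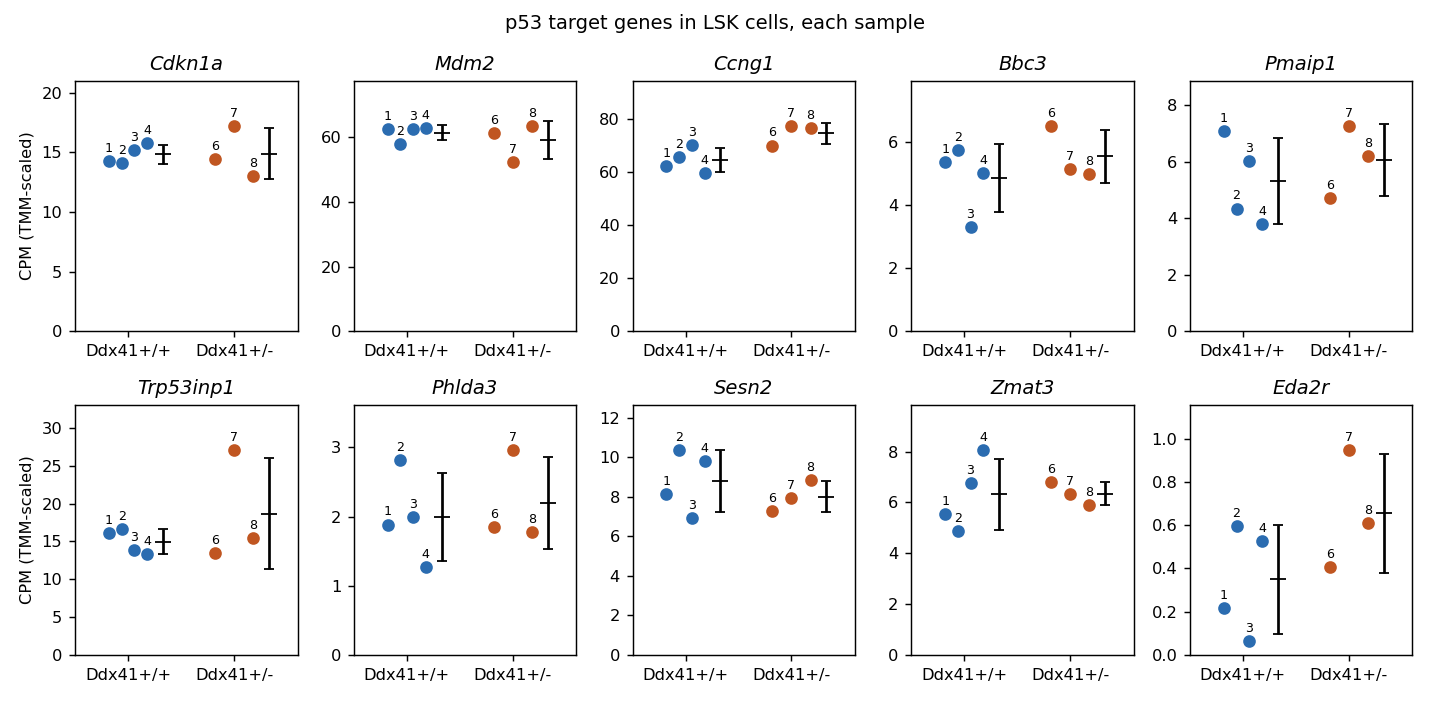
CPM (scaled for library composition, vertical axes from 0, each with its own range) of the 10 p53 target genes in 4 Ddx41+/+ samples (blue) and 3 Ddx41+/- samples (orange). Points are samples with their replicate number, and the black bars give the mean and SD of each genotype. The genotypes overlap in every panel, and replicate 7 stands above the other samples most clearly in Trp53inp1.

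Among the genes of cell cycle arrest, Cdkn1a encodes p21, the cyclin-dependent kinase inhibitor through which p53 stops cells in G1. The gene spans chr17:29090976-29100727 on the plus strand (GRCm38). Cdkn1a was measured at 14.3, 14.1, 15.2 and 15.8 CPM in Ddx41+/+ replicates 1 to 4 and at 14.5, 17.2 and 13.0 CPM in Ddx41+/- replicates 6 to 8. The highest and the lowest of the 7 values were both Ddx41+/- samples. The group means were 14.8 ± 0.80 CPM (SD, n = 4) and 14.9 ± 2.12 CPM (SD, n = 3), and the Ddx41+/- mean was 100.5% of the Ddx41+/+ mean. The log2 fold change was 0.0059 (SE 0.13, edgeR adjusted p = 0.992), and its 95% interval covers folds of 0.833 to 1.21. The sign of this estimate changed under 7 of 14 alternatives, within -0.11 to 0.094. Each sample held 480 to 590 Cdkn1a counts, for which counting error alone is at most 4.56%. On the opposite strand a transcript annotated as AC167363.2 overlaps 273 exonic bases of Cdkn1a, and whether the authors' counting used strand is not given in the sources used here.

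Ccng1 encodes cyclin G1, a p53-induced cyclin that recruits a phosphatase to Mdm2, and spans chr11:40748552-40755311 on the minus strand. It was measured at 62.2, 65.6, 70.2 and 59.7 CPM in Ddx41+/+ and at 70.0, 77.3 and 76.5 CPM in Ddx41+/- replicates. Replicates 7 and 8 were above every Ddx41+/+ sample, and replicate 6 was just under Ddx41+/+ replicate 3. The log2 fold change was 0.21 (SE 0.075, edgeR unadjusted p = 0.0125, adjusted p = 0.322), a mean of 115.8% of the Ddx41+/+ level with a 95% interval of 1.04 to 1.29 fold. The estimate stayed between 0.18 and 0.25 over all alternatives, with an unadjusted p of 0.00442 to 0.0433 and an adjusted p of 0.218 to 0.661.

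Mdm2, the ubiquitin ligase that marks p53 for degradation and is itself induced by p53, spans chr10:117688875-117710758 on the minus strand. It was measured at 62.4, 58.0, 62.4 and 62.8 CPM in Ddx41+/+ and at 61.4, 52.4 and 63.4 CPM in Ddx41+/- replicates. Replicate 7 held the lowest value and replicate 8 the highest. The log2 fold change was -0.055 (SE 0.079, edgeR adjusted p = 0.858) with an interval of 0.857 to 1.08 fold. Trp53 itself was measured at 284.4 to 286.0 CPM in the 4 Ddx41+/+ samples and at 267.7, 286.6 and 258.0 CPM in the Ddx41+/- samples. The log2 fold change of Trp53 was -0.075 (SE 0.057, edgeR adjusted p = 0.688). p53 is controlled largely at the level of the protein, which was not measured here.

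Of the members that act in cell death, Bbc3, Pmaip1, Phlda3 and Eda2r did not pass the test, and their values overlapped between genotypes. Bbc3 encodes Puma and Pmaip1 encodes Noxa, BH3-only proteins that bind the anti-apoptotic Bcl2 family. Bbc3 (chr7:16308393-16318205, plus strand) was measured at 5.37, 5.75, 3.32 and 5.03 CPM in Ddx41+/+ and at 6.50, 5.13 and 4.98 CPM in Ddx41+/- replicates, with the lowest value in Ddx41+/+ replicate 3. Its log2 fold change was 0.18 (SE 0.22, edgeR adjusted p = 0.817), and 0.041 without Ddx41+/+ replicate 3 or 0.052 without Ddx41+/- replicate 6. Pmaip1 was measured at 7.11, 4.35, 6.03 and 3.81 CPM in Ddx41+/+ and at 4.72, 7.27 and 6.22 CPM in Ddx41+/- replicates. Values of both genotypes were interleaved, and the log2 fold change was 0.19 (SE 0.23, edgeR adjusted p = 0.829). Leaving out Ddx41+/- replicate 7 gave 0.038, and leaving out Ddx41+/+ replicate 1 gave 0.36.

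Phlda3, a small pleckstrin homology protein that competes with Akt for membrane lipids, spans chr1:135766119-135769136 on the plus strand. It was measured at 1.89, 2.82, 1.99 and 1.27 CPM in Ddx41+/+ and at 1.85, 2.97 and 1.78 CPM in Ddx41+/- replicates. The Ddx41+/- range lay almost wholly within the Ddx41+/+ range, and the log2 fold change was 0.14 (SE 0.34, edgeR adjusted p = 0.920). Eda2r, a receptor of the tumor necrosis factor receptor family that binds ectodysplasin A2, spans chrX:97333840-97377216 on the minus strand. It held 9, 23, 2 and 19 counts in Ddx41+/+ and 16, 32 and 27 counts in Ddx41+/- replicates, or 0.063 to 0.60 CPM against 0.41 to 0.95 CPM. Its log2 fold change was the furthest from 0 among the members, 0.88 (SE 0.69, edgeR adjusted p = 0.697), but the interval of 0.669 to 5.06 fold shows how little these counts can resolve. With 2 counts in the lowest sample, counting error alone was 70.7% there.

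Trp53inp1 encodes a nuclear protein that promotes p53 phosphorylation and takes part in autophagy, and spans chr4:11156431-11174379 on the plus strand. It was measured at 16.1, 16.6, 13.9 and 13.3 CPM in Ddx41+/+ and at 13.5, 27.1 and 15.4 CPM in Ddx41+/- replicates. Replicates 6 and 8 lay within the Ddx41+/+ range, while replicate 7 held 1.63 times the next highest value and 1.83 times the mean of the 6 other samples. The log2 fold change was 0.31 (SE 0.21, edgeR adjusted p = 0.642). It was -0.053 without replicate 7 and 0.50 without replicate 6 (edgeR unadjusted p = 0.0216, adjusted p = 0.283), so the direction of the estimate was set by replicate 7. The biological coefficient of variation of Trp53inp1, its spread within genotypes beyond counting error, was 19%, higher than for 97.4% of 3188 genes of like level.

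The remaining members are Sesn2 and Zmat3. Sesn2 encodes sestrin 2, which lowers oxidative stress and restrains mTORC1, and spans chr4:132492032-132510501 on the minus strand. It was measured at 8.12, 10.4, 6.95 and 9.84 CPM in Ddx41+/+ and at 7.26, 7.92 and 8.86 CPM in Ddx41+/- replicates, all Ddx41+/- values lying within the Ddx41+/+ range. Its log2 fold change was -0.14 (SE 0.17, edgeR adjusted p = 0.827). Zmat3, a zinc finger protein that binds RNA and affects splicing and transcript stability, spans chr3:32334792-32366014 on the minus strand. It was measured at 5.56, 4.87, 6.76 and 8.07 CPM in Ddx41+/+ and at 6.80, 6.35 and 5.88 CPM in Ddx41+/- replicates. The Ddx41+/- values again lay within the Ddx41+/+ range, with a log2 fold change of 0.0084 (SE 0.20, edgeR adjusted p = 0.992).

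The intervals of the fold change show what this design could see. For 5 members (Cdkn1a, Mdm2, Ccng1, Sesn2 and Zmat3) the upper 95% bound was below a 1.5-fold increase, at 1.21, 1.08, 1.29, 1.17 and 1.34 fold. For Bbc3, Pmaip1, Trp53inp1, Phlda3 and Eda2r the upper bound was 1.56, 1.61, 1.7, 1.81 and 5.06 fold, so an increase of 1.5 fold could not be told from no change. The interval held 1 for 9 of the 10 members, Ccng1 being the exception. The plot of log2 fold changes sets these intervals beside the fits that leave out a sample.

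**Figure D2:**
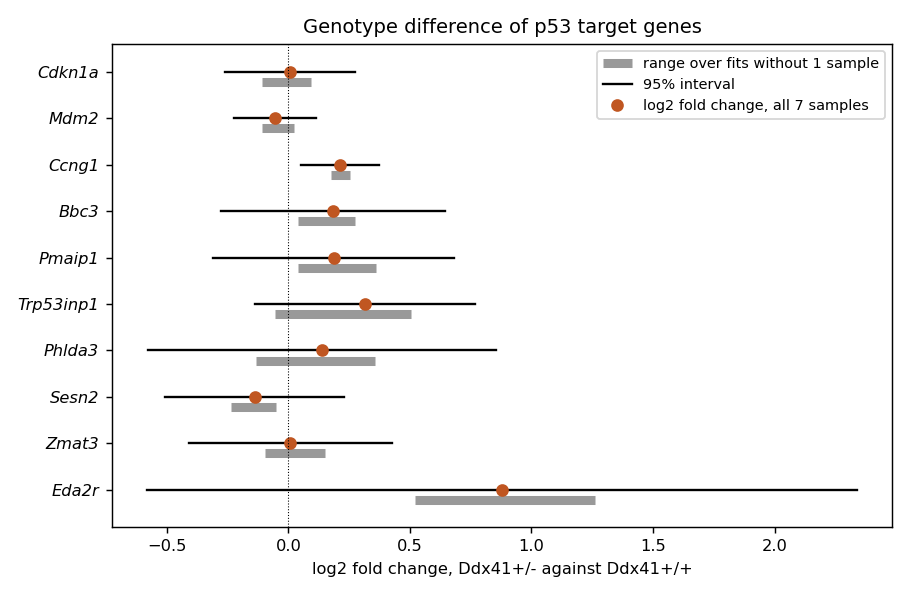
Log2 fold change (horizontal axis, Ddx41+/- against Ddx41+/+) of the 10 p53 target genes (vertical axis), with points for all 7 samples, black lines for the 95% interval and grey bars for the range over fits that each leave out 1 sample. The interval of Ccng1 alone lies above 0, and the grey bars of Cdkn1a, Mdm2, Trp53inp1, Phlda3 and Zmat3 cross 0.

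Levels were compared between genes as CPM per kilobase of annotated exon, since longer genes collect more counts. Over the 7 samples Ccng1 was the highest at 19.6, followed by Mdm2 at 11.9 and Cdkn1a at 4.18 CPM per kilobase. Trp53inp1, Sesn2, Bbc3 and Pmaip1 followed at 2.56, 2.44, 2.43 and 2.07 CPM per kilobase, then Phlda3 at 1.34, Zmat3 at 0.553 and Eda2r at 0.0816 CPM per kilobase. Neighbours in this order did not overlap across samples for Ccng1 and Mdm2, Mdm2 and Cdkn1a, Phlda3 and Zmat3, or Zmat3 and Eda2r. From Cdkn1a down to Phlda3 each gene overlapped its neighbour, and the order of Trp53inp1, Sesn2, Bbc3 and Pmaip1 is not resolved by these samples. The length is that of all annotated exons together, which lowers the value of genes with long exons that LSK cells may not use.

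Ddx41+/- replicate 7 stood apart in the member genes. It held the highest of the 7 values for 6 of 10 members (Cdkn1a, Ccng1, Pmaip1, Trp53inp1, Phlda3 and Eda2r) and the lowest for Mdm2. Over all genes tested it was the highest sample for 19.3% and the lowest for 21.9%. Its margin over the next sample was small for Cdkn1a (1.09 times), Ccng1 (1.01 times), Pmaip1 (1.02 times) and Phlda3 (1.05 times), and larger for Trp53inp1 (1.63 times) and Eda2r (1.56 times). Ddx41+/- replicates 6 and 8 were the highest sample for 1 member each. Ddx41+/+ replicate 4 was the lowest sample for 4 members (Ccng1, Pmaip1, Trp53inp1 and Phlda3), and 11.4% of all genes tested were lowest there. Replicate 7 also held the highest value of 5 of 7 macrophage markers and 4 of 8 B-lineage markers. In every other marker list it was the highest for 1 or 2 genes. Among the LSK markers it was the highest for Ly6a (30.5 CPM). It was the lowest for Flt3 (164.1 CPM), Procr (3.26 CPM), Mecom (21.1 CPM) and Hlf (65.3 CPM). The lowest values of Kit, Cd34 and Slamf1 were in other samples. The summed B-lineage level was higher in replicate 6 (78.81 CPM) than in replicate 7 (77.45 CPM). Cdkn2a, which encodes the Mdm2 inhibitor Arf and the kinase inhibitor p16, held 15 counts in replicate 7 and 0 in the other 6 samples, where a count of 0 allows up to 3 counts. Cdkn2a was singled out after its values were seen, and it had too few counts to enter the test. The part of these markers in the pattern of replicate 7 was not tested. The heat map shows the members by sample.

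**Figure D3:**
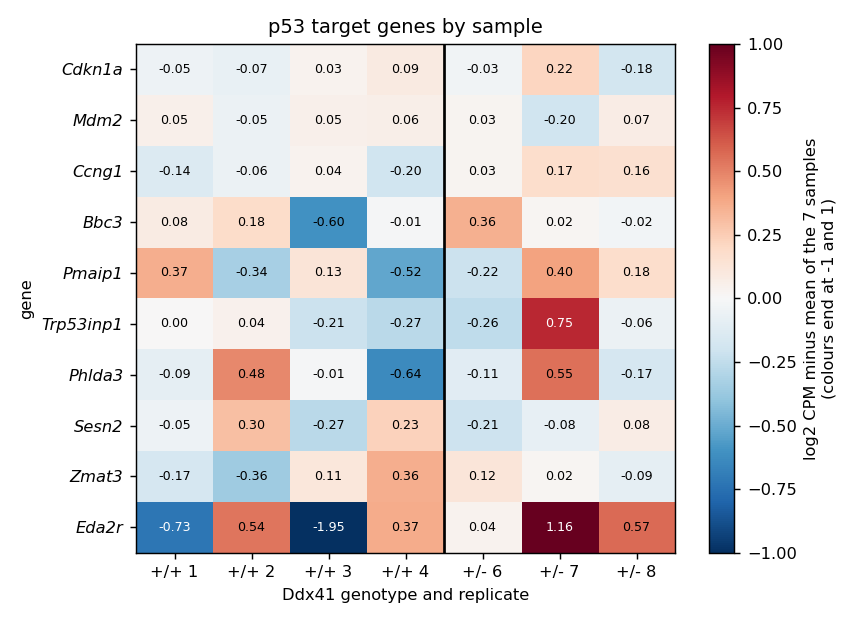
Log2 CPM minus the mean of the 7 samples (colour and printed value) for the 10 p53 target genes (rows) in each sample (columns), with the genotypes separated by a black line. Colours end at -1 and 1. Ddx41+/- replicate 7 is 0.75 above the mean for Trp53inp1 and 0.20 below it for Mdm2, and the widest spread is that of Eda2r.

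No common rise and fall of the members was seen across the 7 samples. Counting error in the lowest sample, 70.7% for Eda2r and 14.7% for Phlda3, and the small number of samples limit what these values can show. An adjusted p over 0.05 therefore does not show that a pair is unrelated. Of 45 pairs of members, Pearson's r of log2 CPM was above 0 for 21 and below 0 for 24, with a median of -0.019. An exact permutation test over all pairings gave an unadjusted p under 0.05 for 3 pairs and an adjusted p under 0.05 for 0, the smallest adjusted p being 0.393 (two-sided). These 3 pairs were Mdm2 and Phlda3 (r = -0.81, exact p = 0.00873, adjusted p = 0.393, Spearman's rho = -0.86, exact p = 0.0238), Mdm2 and Trp53inp1 (r = -0.91, exact p = 0.0308, adjusted p = 0.539, rho = -0.57, exact p = 0.2), and Trp53inp1 and Phlda3 (r = 0.75, exact p = 0.0359, adjusted p = 0.539, rho = 0.82, exact p = 0.0341). Without the 2 samples farthest from the median of the first gene, r was -0.27, 0.47 and 0.52 for these pairs, and without Ddx41+/- replicate 7 alone it was -0.79, -0.44 and 0.68. The relation of Mdm2 and Trp53inp1 rested on the samples left out, and that of Mdm2 and Phlda3 was weaker over the narrower range of Mdm2 that they leave. Both genotypes enter these values, and neither has enough samples to be taken alone. The genes whose log2 CPM was most like that of Cdkn1a over the 7 samples, among 11204 genes with a mean of at least 1 CPM, were Cox4i2 (r = 0.98), Slc3a2 (r = 0.98), Psme3 (r = 0.96), H2-DMb1 (r = 0.95) and Bcl3 (r = 0.95). These were picked as the highest values, are given as a description only, and include 0 other members.

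The rest of the pathway was described with 7 lists of 73 genes, all present in the table, of which 69 had enough counts to be tested. None of the 69 changed at an adjusted p under 0.05 (edgeR; 0 also with DESeq2 and limma-voom). At an unadjusted p under 0.05, 3 were higher and 2 lower in Ddx41+/- samples, beside 5.7% higher and 4.93% lower of all genes tested. The same shares stand beside the counts of each list below, which are too small to set a list apart. The log2 fold change was above 0 for 32 and below 0 for 37, with a median of -0.015, beside the median of -0.0048 over all genes tested. The CPM of the genotypes did not overlap for 2 genes, Bid and Rrm2b, both higher in Ddx41+/- samples, beside 10.1% of all genes tested.

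Of p53 and its regulators, 14 of 17 were tested, and 1 was higher at an unadjusted p under 0.05. This was Atr, the kinase that responds to stalled replication forks, at 66.6 to 82.6 CPM in Ddx41+/+ and 82.2 to 104.0 CPM in Ddx41+/- samples (log2 fold change 0.26, SE 0.092, edgeR unadjusted p = 0.0124, adjusted p = 0.322). Without Ddx41+/- replicate 8 it was 0.14 (edgeR unadjusted p = 0.13). Atm, the kinase that responds to double-strand breaks, had a log2 fold change of 0.20 (SE 0.11, edgeR adjusted p = 0.560), and of 0.054 without the same replicate. Rpl23, a ribosomal protein that binds Mdm2 when ribosome assembly is disturbed, was the highest of this list per length, with a log2 fold change of -0.10 (SE 0.092, edgeR adjusted p = 0.748) that ranged from -0.18 to -0.030 when a sample was left out. Cdkn2a, Trp63 and Trp73 held 0 to 15 counts per sample and were not tested.

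Among 8 other targets that act on the cell cycle, 1 was higher at an unadjusted p under 0.05. Btg2, an antiproliferative gene that recruits the deadenylation machinery, was measured at 16.3 to 24.7 CPM in Ddx41+/+ and 23.6 to 28.8 CPM in Ddx41+/- samples (log2 fold change 0.38, SE 0.13, edgeR unadjusted p = 0.0121, adjusted p = 0.320). Plk2 had a log2 fold change of 0.71 (SE 0.45, edgeR adjusted p = 0.605) at 0.65 to 2.55 CPM, which was 0.21 without Ddx41+/- replicate 8, the sample with the highest value. Gtse1, a microtubule-associated protein that restrains p53 in G2, had one of -0.11 (SE 0.080, edgeR adjusted p = 0.657), and of -0.033 without Ddx41+/- replicate 7.

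Of 11 other targets in cell death, 0 had an unadjusted p under 0.05. A log2 fold change above 0 was found for 3, beside 48.8% of all genes tested. Bid, the BH3-only protein that links death receptors to mitochondria, was measured at 129.2 to 140.1 CPM in Ddx41+/+ and 141.4 to 152.9 CPM in Ddx41+/- samples (log2 fold change 0.12, SE 0.061, edgeR unadjusted p = 0.0737, adjusted p = 0.525). The death receptor gene Tnfrsf10b had a log2 fold change of -0.34 (SE 0.20, edgeR adjusted p = 0.583).

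Of 6 targets in DNA repair and nucleotide supply, 0 had an unadjusted p under 0.05. Rrm2b, the p53-induced subunit of ribonucleotide reductase, was measured at 12.1 to 13.9 CPM in Ddx41+/+ and 14.9 to 15.9 CPM in Ddx41+/- samples (log2 fold change 0.25, SE 0.12, edgeR unadjusted p = 0.053, adjusted p = 0.479). Polk, a translesion polymerase, had a log2 fold change of 0.22 (edgeR adjusted p = 0.607) and Xpc, which recognizes lesions in nucleotide excision repair, one of 0.032 (edgeR adjusted p = 0.897).

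Of the targets in metabolism and redox control, 10 of 11 were tested, with 1 higher and 1 lower at an unadjusted p under 0.05. Sesn1, the sestrin related to Sesn2, was measured at 65.1 to 87.8 CPM in Ddx41+/+ and 59.7 to 69.7 CPM in Ddx41+/- samples (log2 fold change -0.27, SE 0.094, edgeR unadjusted p = 0.0115, adjusted p = 0.318). Its estimate without Ddx41+/- replicate 7 was -0.21 (edgeR unadjusted p = 0.0596). Tigar, which lowers glycolytic flux, was measured at 19.8 to 26.2 CPM in Ddx41+/+ and 25.8 to 28.6 CPM in Ddx41+/- samples (log2 fold change 0.25, SE 0.11, edgeR unadjusted p = 0.0298, adjusted p = 0.404). The unadjusted p of Tigar was over 0.05, up to 0.0951, when any sample other than Ddx41+/+ replicate 4 or Ddx41+/- replicate 8 was left out. Gdf15 held 0 to 11 counts per sample and was not tested.

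Of the 6 genes in the remaining list of targets (the ubiquitin ligases Rchy1 and Cop1, the noncoding RNAs Trp53cor1 and Pvt1, and Rps27l and Trp53inp2), 1 was lower at an unadjusted p under 0.05. Rchy1, which encodes the p53 ligase Pirh2, was measured at 37.4 to 53.1 CPM in Ddx41+/+ and 30.5 to 41.2 CPM in Ddx41+/- samples (log2 fold change -0.27, SE 0.12, edgeR unadjusted p = 0.0485, adjusted p = 0.465). It was -0.16 without Ddx41+/- replicate 7 (edgeR unadjusted p = 0.224) and -0.17 without Ddx41+/+ replicate 3 (edgeR unadjusted p = 0.161), and the unadjusted p was also over 0.05 without Ddx41+/+ replicate 2 or Ddx41+/- replicate 8. The noncoding RNA Pvt1 had a log2 fold change of 0.24 (edgeR adjusted p = 0.696) and Rps27l, a ribosomal protein paralog induced by p53, one of -0.066 (edgeR adjusted p = 0.791).

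The last list holds genes that p21 lowers through the DREAM repressor complex. Whether p21 acted on them in these cells was not tested. Of 14 such genes, most of them with roles in G2 and mitosis, 0 had an unadjusted p under 0.05. The log2 fold change was above 0 for 7 and below 0 for 7, beside 48.8% above 0 of all genes tested. Values ranged from -0.12 to 0.16. Bub1, a spindle checkpoint kinase, had a log2 fold change of 0.16 (SE 0.085, edgeR adjusted p = 0.542) and Cdc20, the activator of the anaphase-promoting complex, one of -0.10 (SE 0.070, edgeR adjusted p = 0.657). The plot of the pathway lists shows all of these genes against the spread of all genes tested.

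**Figure D4:**
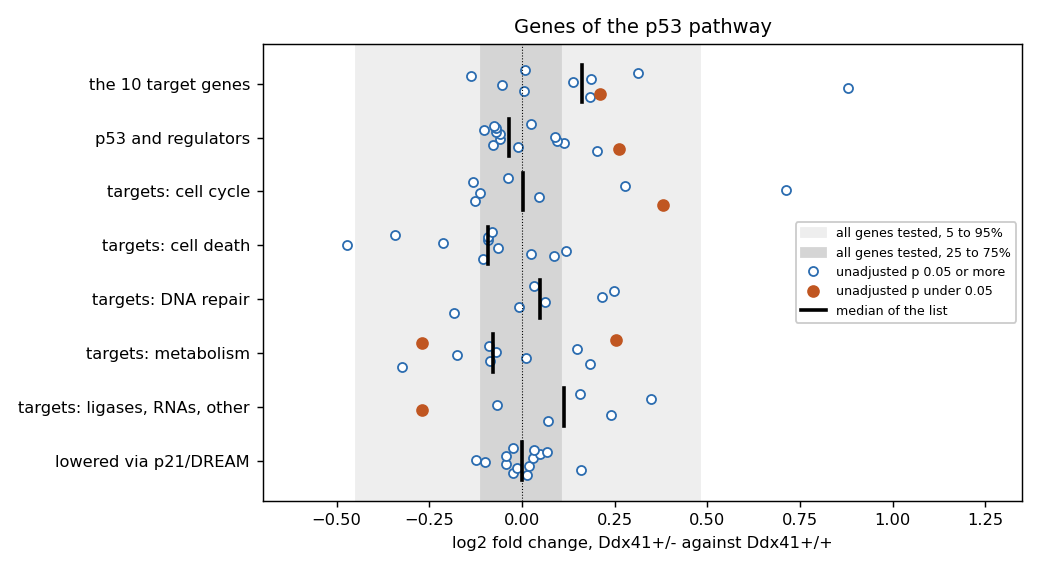
Log2 fold change (horizontal axis, Ddx41+/- against Ddx41+/+) of the tested genes of each list (rows), with filled points for an unadjusted p under 0.05, black bars for list medians and grey bands for the middle 50% and 90% of all genes tested. The medians of the 7 other lists lie between -0.091 and 0.11, and the members' median is 0.16.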

How the data were processed

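RNA-seq was performed on 4 Ddx41+/+ and 3 Ddx41+/- samples of LSK cells sorted from recipients. The authors deposited raw counts per gene symbol, with no normalization. Per the submitters' processing notes, FastQC 0.11.7, HISAT2 2.0.5, featureCounts 1.5.2 and the mm10 build were used. The labels and the study's methods name different poly(A) library kits, and the annotation and strand setting are not given in the sources used here, so overlapping genes cannot be told apart. Genotypes were compared by fitting these counts in edgeR 4.0.16 (R 4.3.3) with its robust quasi-likelihood model after TMM scaling and filterByExpr, which kept 13340 genes. Adjusted p means Benjamini-Hochberg adjustment over these genes, called under 0.05. CPM used TMM-scaled library sizes and log2 CPM a prior count of 2. No batch is named in the labels, and no pairing was used. P-values measure the spread between these samples. Every one of 21 sample pairs differed by more than sampling noise (chi-square of 13.7 or more for each gene on average). The lowest value was for a pair across genotypes, Ddx41+/+ replicate 2 and Ddx41+/- replicate 6. The highest, 102, was for Ddx41+/+ replicate 3 and Ddx41+/- replicate 8. These 2 samples also held the highest and lowest share of counts on the ribosomal RNA gene Rn45s, 2.92% and 0.623%. The part of this share in the gene values was not tested.

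Alternatives were DESeq2 1.42.0, limma-voom (limma 3.58.1) with and without sample quality weights, other scalings, no expression filter, and leaving out each sample. The fits were tested on simulated data. Correlations used exact permutation tests (scipy 1.17.1). Gene positions and exon lengths came from GENCODE M21 (GRCm38), and Cop1 was matched through the older symbol Rfwd2. Ahsp, a late erythroid marker, matched no symbol.

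The members and lists were chosen with earlier results of these data known. Named genes were the 10 members, Ddx41, Trp53, the 2 genes with the smallest p and the 1 gene with the highest CPM per kilobase in each pathway list, and the 5 genes most like Cdkn1a, leaving out predicted genes and pseudogenes. Promoter windows on chromosome 18 are not reported here.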

Additional observations from a re-analysis of the deposited data

Results flagged for a closer look

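Of 30 values checked in the 4 Ddx41+/+ samples, 1 had a sample far from the others. Mdm2 was 58.0 CPM in Ddx41+/+ replicate 2 and 62.4 to 62.8 CPM in the other 3 samples, a gap of 0.931 of the group's range, above Dixon's 95% critical value for 4 samples. Chance flags about 1 in 20 such groups.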

How the results depend on the processing

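No member and no other pathway gene passed the adjusted threshold under any alternative. The count of members with an unadjusted p under 0.05 was 1, and 2 without Ddx41+/- replicate 6 (range 1 to 2 over fits without a sample). Ddx41 stayed between -0.56 and -0.50, with an adjusted p of at most 0.0324. Estimates near 0 changed sign. Cdkn1a was -0.011 with library totals only, -0.00095 with upper-quartile scaling, -0.013 with limma-voom, -0.033 with quality weights and -0.11 to 0.094 when a sample was left out. Zmat3 was -0.0070 with library totals only and -0.096 to 0.15 when a sample was left out. Phlda3 was -0.062 with quality weights and -0.14 to 0.36 when a sample was left out, Trp53inp1 -0.053 to 0.50 and Mdm2 -0.11 to 0.022. For Mdm2 and Trp53inp1 this happened only without Ddx41+/- replicate 7. Over all genes, 7 to 147 passed the adjusted threshold, against 29, with 147 from DESeq2 and 7 without Ddx41+/+ replicate 2. No paired analysis was possible because the labels give no pairing between the genotypes. Depth limits Eda2r and Phlda3 the most.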
